A study of Homo sapiens with 4 samples.

Results

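The regions described here are ZNF416-FLAG peaks that lie inside annotated genes, away from start sites and with no repeat named in their annotation. A peak was taken when it sat on a chromosome (not on a contig), its centre was over 1 kb from the nearest transcription start site (TSS), its annotation placed it in an intron, an exon, a UTR or a non-coding exon, and its detailed annotation named no repeat. The rule kept 306 of the 1386 peaks of the list, 22.1% (exact 95% interval 19.9 to 24.4), or 28.3% of the 1080 peaks on chromosomes (25.7 to 31.1). It did not use the peak score, the width, the intron number or the identity of the genes. The detailed annotation gives 1 label per peak, so a peak labelled as exon or UTR could overlap a repeat that was not named.

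ZNF416 is a C2H2 zinc finger protein of the KRAB class. Proteins of this class bind DNA through arrays of zinc fingers, and their KRAB domain is known for recruiting the corepressor TRIM28. Introns, and above all the first introns of genes, hold many of the distal regulatory elements of mammalian genomes, and such an element can act on its host gene or on another gene nearby. In lung, fibroblasts make and contract the extracellular matrix, and the title of the series places ZNF416 in their activation by mechanical cues.

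The cells were IMR90, a line of human lung fibroblasts, that carried ZNF416-FLAG from a lentivirus and had survived puromycin, so the tagged protein was made from an added copy. Crosslinked chromatin was cut with MNase and sonicated before the pull-down. The labels give 2 ChIP libraries (anti-FLAG M2 beads) and 2 input libraries, all from these same cells, numbered 1 and 2 and described as biological replicates. All 4 enter only through 1 peak list on hg19, with a whole-number score per peak that the authors took over from peak calling. The list holds no value of a single library, so no spread between replicates exists for any value below, and the depth behind a peak is unknown. A pull-down with the FLAG beads from cells without the tag was not analysed here. Intervals of shares are exact (Clopper-Pearson) over peaks or genes and cover counting error only, and since peaks are not replicates no difference between groups of peaks was tested. The names of the cells could not be checked against marker genes, because the list holds no expression.

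Mature miRNA sequences show what the choice between host gene and nearest gene can mean. In HOMER's annotation each peak has a host, the gene whose transcript it lies in, and a nearest gene, the one with the closest TSS. For 21 of the 306 peaks the nearest gene was a miRNA gene while the host was another gene. The sequences below, from RefSeq on GRCh38.p14, belong to the 3 strongest of these peaks whose miRNA gene lies within the host gene. They are shown because a list made by nearest gene would carry these small RNAs in place of the hosts PLPP1, TMEM245 and MIR4435-2HG. Capitals mark the seed, bases 2 to 8 from the 5′ end.

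hsa-miR-5687: uUAGAACGuuuuagggucaaau

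hsa-miR-32-5p: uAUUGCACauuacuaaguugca

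hsa-miR-32-3p: cAAUUUAGugugugugauauuu

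hsa-miR-4435: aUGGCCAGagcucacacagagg

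These 4 sequences have 4 different seeds. The peak nearest to MIR5687 scored 111 and lay in intron 5 of PLPP1, a lipid phosphatase gene, 81676 bp downstream of the miRNA's start (chr5:54723005-54723151). The peak nearest to MIR32 scored 96 and lay 9902 bp from it, in intron 15 of TMEM245 (chr9:111798607-111798746). MIR4435-2 was nearest to a peak of score 82 in intron 5 of MIR4435-2HG, its long non-coding host transcript, at 92919 bp (chr2:111985650-111985838). All 3 peaks lay kilobases away from the miRNA itself, and no binding at the miRNA sequence was measured.

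Scores of the 306 intragenic peaks ran from 13 to 355, with a median of 60.5 (order-statistic 95% interval 57 to 65) and quartiles of 42.25 and 83.75. The whole list had a median of 62 and an upper quartile of 87. At or above these lay 151 (49.3%, 43.6 to 55.1) and 73 (23.9%, 19.2 to 29.0) of the intragenic peaks. The whole list includes 306 peaks on contigs, whose median score was 67 (62 to 75), with 35.3% at or above the upper quartile. Promoter peaks, within 1 kb of a TSS, had a median score of 62 (interval 56 to 63, n = 329). Intergenic and gene-end peaks without a repeat had 58 (56 to 67, n = 235), and repeat peaks beyond 1 kb had 57.5 (53 to 65, n = 210). All 4 intervals of the groups on chromosomes overlapped.

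**Figure D1:**
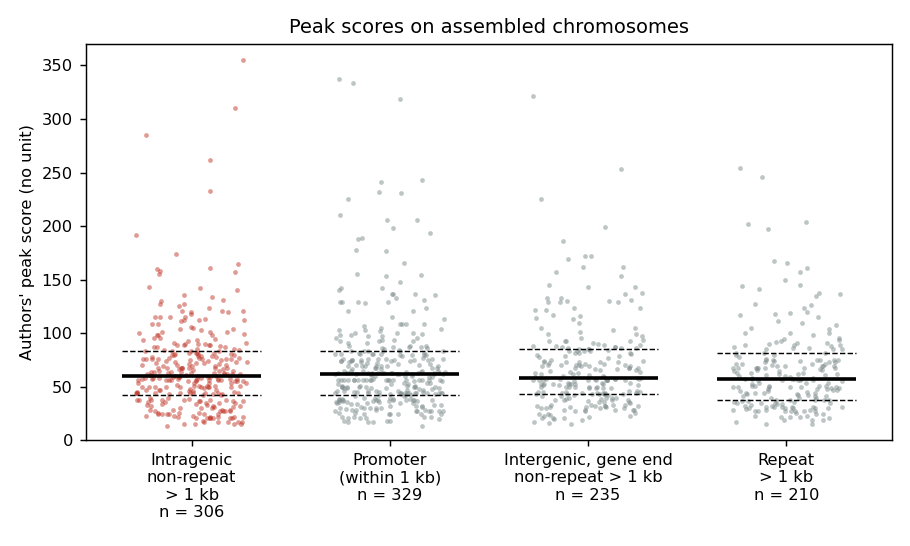
Peak score (authors' value, no unit) of every peak on assembled chromosomes, in 4 groups by position; each point is 1 peak, solid lines are medians and dashed lines quartiles. The medians lie between 57.5 and 62, and the highest score, 355, belongs to an intragenic peak.

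Widths were also alike in these groups on chromosomes, while peaks on contigs had a median width of 176 bp. The median width was 138.5 bp (quartiles 119 and 196, range 107 to 754), against 135 bp for promoter peaks, 139 bp for intergenic and gene-end peaks and 145 bp for repeat peaks. The smallest width in the list, 107 bp, was shared by 30 of the 306 peaks (9.80%) and by 32 of 329 promoter peaks (9.73%). Score and width were weakly related across the 306 peaks (Spearman correlation 0.19), a description of peaks called from the same libraries. Score and distance to the nearest TSS had a Spearman correlation of 0.03.

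The intragenic peaks were also counted at the strong end of the list. Of the 10 highest-scoring peaks 4 were intragenic by this rule, of the first 50 there were 7 (14%, 5.82 to 26.7), and of the first 100 there were 16 (16%, 9.43 to 24.7). The 22.1% of the whole list lay inside both intervals. The list ranked here includes the peaks on contigs. A score of 100 or more was reached by 50 of the 306, and 44 scored under 30.

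The strongest peak, with a score of 355 and rank 1 of the list, lay in intron 4 of 14 of SLC6A3, which encodes the dopamine transporter (chr5:1422426-1423100). BACH2, the gene of a bZIP transcriptional repressor, held the next, of score 310, in intron 1 of 8 at 12630 bp from its TSS (chr6:90993798-90994067). A peak of score 285 sat in intron 3 of 4 of CHST8, a carbohydrate sulfotransferase gene (chr19:34258971-34259104). SRCAP, which encodes the ATPase of a remodeller that deposits the histone variant H2A.Z, held one of score 262 in intron 15 of 33 (chr16:30724510-30725126). The last intron of VRK3, a gene of the vaccinia-related kinase family, held one of score 233 (chr19:50490573-50490875).

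After these 5 the scores dropped below 200. Intron 1 of MIR137HG, the host transcript of miR-137, held a peak of score 192 at 1185 bp from the TSS (chr1:98513857-98514271). The next belonged to the non-coding gene LOC101929762 (174), to VOPP1 (165), to DLGAP4, a gene of a postsynaptic scaffold protein (161), and to the non-coding gene LOC101927066 (160). They were followed by MTMR10, of the myotubularin family (158), OLFML2B, of an olfactomedin-like secreted protein (157), FRMD4A, of a FERM domain scaffold (155), LINC01141 (143) and DPP9, of a cytosolic dipeptidyl peptidase (142). All 15 of these peaks were intronic, and 4 of them lay in non-coding genes.

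Introns held 274 of the 306 peaks, 89.5% (85.6 to 92.7). Exons of coding genes held 13 (4.25%), 3′ UTRs 11 (3.59%), non-coding exons 8 (2.61%) and 5′ UTRs 0, which allows a share of up to 1.20% by the exact interval. The rule itself limited the classes, so these shares are a description. The median score was 62.5 in introns, 44 in exons (interval 27 to 62), 62 in 3′ UTRs (28 to 99) and 49 in non-coding exons (15 to 113). The small classes have wide intervals that reach the intronic value or come within a score point of it.

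Of the exonic peaks the strongest was in exon 9 of 14 of TRIP10, a gene of an F-BAR protein that binds Cdc42 (score 90, chr19:6744891-6745025). DTX4, of a Deltex-type ubiquitin ligase, followed with 76 in its last exon, and GUCY1B1, of a subunit of the nitric oxide receptor guanylate cyclase, and FOCAD, of focadhesin, had 62 each. In 3′ UTRs the highest scores were 104 at SLC39A13, a zinc transporter gene, 99 at OTUD7B, a deubiquitinase gene, 93 at NIBAN1 and 76 at TPD52L1. Among non-coding exons, LHX5-AS1 had 113, THAP7-AS1 had 75 and AIRN, the transcript antisense to IGF2R, had 51. LINC01460 had 25. The other 4 of those 8 peaks, of which the strongest scored 56, lay side by side in 1 exon of AFG3L1P and are described below.

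Intron 1 held 98 of the 274 intronic peaks, 35.8% (30.1 to 41.8), and intron 2 held 62 (22.6%). Intron 3 had 27, intron 4 had 23 and the introns from the fifth on had 64, of which 27 were in intron 10 or later. The last intron of the annotated transcript held 29 (10.6%), and 7 peaks were in transcripts with a single intron. Among transcripts with 2 or more introns, 192 of 267 peaks (71.9%) were in an intron whose number was at most 0.5 of the number of introns. The lengths of the introns were not used here, so these counts were not set against the share of sequence that each intron number makes up. HOMER names 1 transcript for each peak, and the intron number can differ in another transcript of the same gene.

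**Figure D2:**
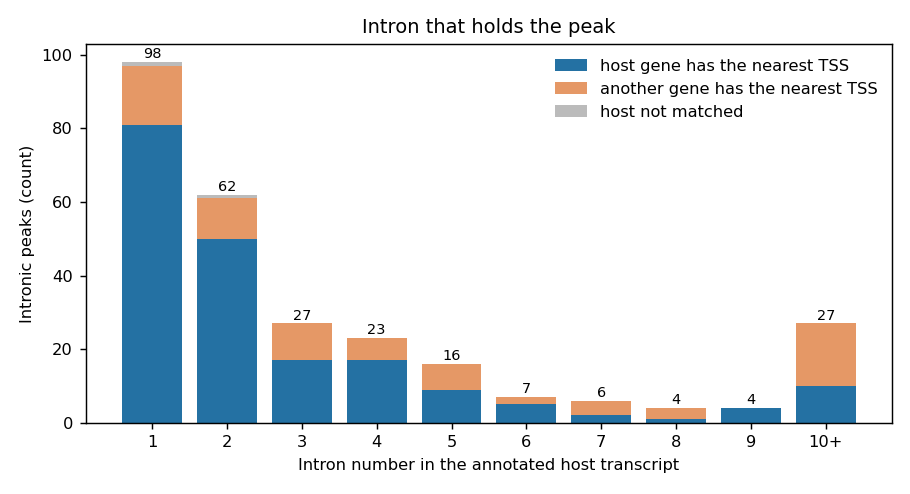
Number of intronic peaks by the number of the intron in the annotated host transcript, coloured by whether the host gene also has the nearest TSS; 10+ pools later introns. Intron 1 holds 98 and intron 2 holds 62 of 274 peaks. The host has the nearest TSS for 83.5% of intron 1, 82.0% of intron 2 and 57.0% of all later introns. Later introns lie farther from the host's own start.

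Scores were also set beside the intron number. In intron 1, 16 of 98 peaks (16.3%, 9.63 to 25.2) reached the upper quartile of the list, and in intron 5 or later 24 of 64 did (37.5%, 25.7 to 50.5). The shares for intron 2 (24.2%) and for introns 3 and 4 (26.0%) lay between them. The median score did not follow this order: it was 61.5 (50 to 68) in intron 1, 63.5 (56 to 73) in intron 2, 54.5 (44 to 72) in introns 3 and 4 and 72 (56 to 89) in intron 5 or later, with overlapping intervals. With peaks closer than 1 kb counted once the shares were 17.8% and 39.3%, and with peaks over 10 kb from a TSS they were 14.3% and 38.6%. Where the host was the nearest gene they were closer, 14 of 81 (17.3%) and 10 of 31 (32.3%), with medians of 63 and 61. Where another gene was nearest they were 2 of 16 (12.5%, 1.55 to 38.3) and 14 of 33 (42.4%, 25.5 to 60.8). In both settings the intervals of the compared shares overlapped. These settings were chosen after seeing the data, and the contrast was not tested. Strong peaks in late introns included those of SRCAP (intron 15), VRK3 (intron 12), MTMR10 (intron 10) and LINC01141 (intron 10).

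The median distance to the nearest TSS was 14386 bp (order-statistic interval 11077 to 17769). Over 1 to 5 kb lay 82 peaks (26.8%), over 5 to 10 kb 48 (15.7%), over 10 to 100 kb 157 (51.3%) and beyond 100 kb 19 (6.21%). Across these bands the median score was 59.5, 58.5, 61 and 65. The farthest were 2 peaks in intron 2 of PRKCE, the gene of protein kinase C epsilon. One scored 72 at 311077 bp (chr2:46189823-46189960) and the other 130 at 284419 bp (chr2:46163046-46163421). CAMTA1, of a calmodulin-binding transcription activator, had the third, of score 62 at 261062 bp in intron 3 (chr1:7106519-7106634).

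At the near edge, the peaks closest to the limit were in intron 1 of GNAQ (score 76, 1019 bp), MICALL2 (73, 1040 bp) and SLC25A10 (94, 1042 bp). Just short of it, and so left out, were KDM2A (128, 994 bp), PTPRJ (39, 980 bp) and CELSR3 (88, 934 bp).

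**Figure D3:**
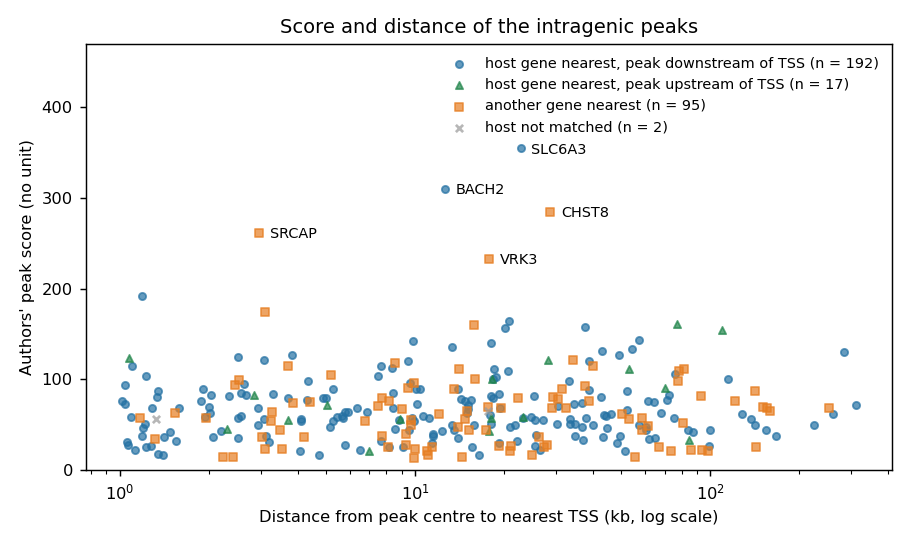
Peak score against the distance of the peak centre from the nearest TSS (kb, log scale) for the 306 intragenic peaks, with symbols for the relation of host gene and nearest gene. The Spearman correlation of score and distance is 0.03, and 3 of the 5 labelled strongest peaks have another gene as the nearest.

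A host gene was found for 304 of the 306 peaks, 302 from the gene table and 2 from transcripts that the list itself pairs with genes. They were 275 different genes. The 240 coding ones made up 1.2% of the 20056 that the gene table lists as protein-coding. Protein-coding hosts held 265 peaks, long non-coding RNA genes 32 and transcribed pseudogenes 6, and 1 host had no type in the table.

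The host was also the nearest gene for 209 of the 304 peaks, 68.8% (63.2 to 73.9). For the other 95 (31.3%), 49 had another protein-coding gene as the nearest, 20 a long non-coding RNA gene, 21 a miRNA gene, 4 a small nucleolar RNA gene and 1 a transcribed pseudogene. The nearest gene lay within the span of the host gene in the gene table for 19 of the 21 peaks nearest to a miRNA gene and for 4 of the 4 nearest to a small nucleolar RNA gene. It did so for 17 of the 20 peaks nearest to a long non-coding RNA gene and for 4 of the 49 nearest to a protein-coding gene, and for 15 of these 49 it overlapped the host. These are counts of peaks, and some of them share a nearest gene. For 1 of the 21, in ESR1 (score 56, chromosome 6), the annotation named MIR3163, which RefSeq on GRCh38.p14 places on chromosome 11. The nearest gene of that peak is therefore uncertain. Host and nearest gene were the same for 81 of 97 peaks in intron 1 (83.5%, 74.6 to 90.3), 50 of 61 in intron 2 (82.0%) and 65 of 114 in later introns (57.0%, 47.4 to 66.3). Later introns lie farther from their host's own start, so these shares depend on gene layout and are only a description. The median score was 60 where they were the same and 62 where they were not.

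Some of the strongest peaks change gene with this choice. By nearest gene the peak in CHST8 would go to KCTD15, 28738 bp upstream of its TSS, and that in VRK3 to SIGLEC16, of a sialic acid-binding lectin, 17803 bp downstream of its TSS. The SRCAP peak would go to SNORA30, a small nucleolar RNA gene inside SRCAP. The peak in LOC101929762 lay 3094 bp upstream of USP53, and that in LOC101927066 lay 15819 bp upstream of TSPYL5. Which gene, if any, responds to ZNF416 at these places was not measured in this series.

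Among the 209 peaks whose host was nearest, 192 lay downstream of the nearest TSS and 17 (8.13%, 4.81 to 12.7) lay upstream of it. A peak inside its host lies downstream of that transcript's start by construction, so this split is a description. These 17 lay in an intron of one transcript of the gene and upstream of another start site of it. The strongest were DLGAP4 (score 161, 77357 bp before the TSS), FRMD4A (155, 109339 bp), C1orf198 (124, 1075 bp), CLASP2, of a microtubule-binding protein (121, 28227 bp), and the second peak of CAMTA1 (112, 53112 bp).

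Close neighbours were found for 1 in 10 of the peaks. Within 1 kb of another intragenic peak lay 31 of the 306 (10.1%, 6.99 to 14.1), in 13 groups, of which 10 had 2 peaks, 1 had 3 and 2 had 4. The gaps between neighbours ran from 58 to 261 bp, with a median of 105 bp. Another peak of any class within 1 kb was found for 37 (12.1%), against 42 of 329 promoter peaks (12.8%), 17 of 235 intergenic and gene-end peaks (7.23%) and 21 of 210 repeat peaks (10.0%). Whether the peaks of a group are separate sites was not tested.

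SORCS2, which encodes a sorting receptor of the sortilin family, held the most peaks, 5. In intron 1 were peaks of score 67, 82 and 100 within chr4:7209215-7212676, and in intron 3 peaks of 21 and 76 that were nearest to MIR4274. SBNO2, which encodes a transcriptional regulator of the inflammatory response, held 4 in intron 1, in 2 pairs. One pair scored 68 and 84, and the other, over 10 kb nearer to the TSS, scored 48 and 80. SMCO1, a gene of a single-pass membrane protein, held 4 in intron 1 of 2, with scores of 77, 21, 80 and 38 along 1456 bp (chr3:196237797-196239252).

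AFG3L1P, a transcribed pseudogene, held 4 peaks in its last exon, with scores of 44, 56, 15 and 47 and widths of 281 to 323 bp along 1521 bp (chr16:90061198-90062718). The gaps between them were 61, 58 and 176 bp, and all 4 were nearest to DBNDD1. In SLC6A3 the strongest peak, 675 bp wide, was followed by peaks of 32 and 50 in the same intron, 109 and 130 bp apart. Each of the 10 pairs spanned between 315 and 776 bp, as in PPARD (127 and 38), TG (54 and 89) and SMAD3-DT (77 and 63).

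**Figure D4:**
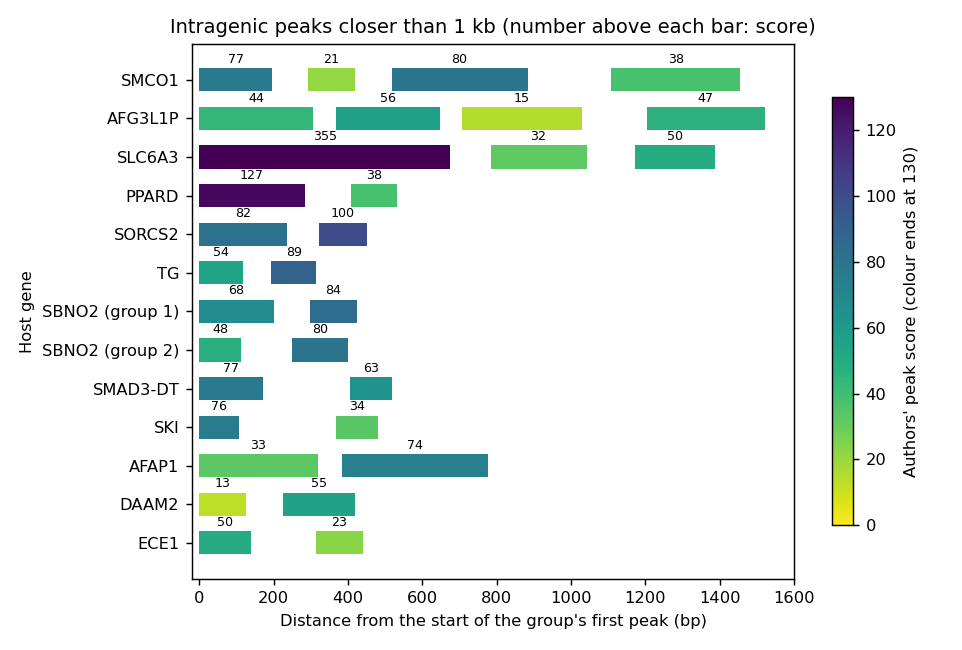
The 13 groups of intragenic peaks closer than 1 kb: bars are peaks drawn to scale from the start of the group's first peak (bp), coloured by score, with the score above each bar. SMCO1 and AFG3L1P have 4 peaks each, and the widest bar is the SLC6A3 peak of score 355.

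In all, 19 of the 275 host genes held 2 or more of these peaks. Those with peaks further apart included ABLIM3, of an actin-binding LIM protein (75 in intron 4 and 89 in intron 18), TJAP1, of a tight junction protein (85 and 64, both in intron 2), and CAMTA1 and PRKCE, given above. The widest peaks were in TMEM184B (754 bp, score 105, chr22:38625556-38626309), SLC6A3 (675 bp) and SRCAP (617 bp).

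Promoter peaks at the host genes were also counted. They come from the same list and are set apart by the rule's own 1 kb limit, so this count is not independent of the rule. A promoter peak was present for 12 of the 275 host genes (4.36%, 2.27 to 7.50). Among protein-coding hosts it was present for 11 of 240 (4.58%, 2.31 to 8.05). Of all 20056 protein-coding genes 269 had one (1.34%, 1.19 to 1.51). Gene length was not used here, and the difference was not tested. In 3 of the 12 genes, MIR137HG, MICALL2 and NOL4L, the peaks lay just on either side of the 1 kb limit, at 820 and 1185 bp, 782 and 1040 bp, and 761 and 1068 bp from the TSS. MIR137HG had 192 beyond the limit and 62 within it. In EHBP1L1 they lay at 552 and 1581 bp. Others were far apart, as in VRK3 (50 at the promoter, 233 in the last intron), PLPP1 (62 and 111), UQCC1 (100 and 101) and ABLIM3 (54 at the promoter). A peak on a repeat beyond 1 kb was also present in 9 of the 275 host genes (3.27%, 1.51 to 6.12). No share over all genes is given beside it, so this count cannot be read as high or low.

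The 306 peaks lay on 22 of the 24 chromosomes with a peak, and 21 and Y had none, though they carried only 9 and 1 peaks of the list. Chromosome 1 had 33, chromosome 2 had 23 and chromosome 19 had 22. They made up 28.3% of all 1080 peaks on chromosomes. Single chromosomes with higher shares included 18 (5 of 12, 41.7%), 4 (13 of 33, 39.4%), 9 (20 of 52, 38.5%) and 16 (21 of 57, 36.8%). Lower shares included those of chromosomes 10 (11 of 62, 17.7%), 12 (5 of 36, 13.9%) and 13 (2 of 20, 10%). These counts are small, and differences between chromosomes were not tested. A CpG island was the detailed annotation of 16 (5.23%, 3.02 to 8.35), against 35 of 329 promoter peaks (10.6%). Intergenic and gene-end peaks had nearly the same share, 14 of 235 (5.96%, 3.29 to 9.79), and the whole list had 67 of 1386 (4.83%). Among these 16 were the peaks of TUBB3, CTF1, GLI2 and DST. All 16 were intronic, but a peak whose 1 label is exon or UTR could not also carry the island label. The detailed annotation gives 1 label per peak, so these shares count the label only. A peak with another label can also lie in an island. The first 5 Mb of a chromosome held 26 (8.50%), against 6.69% of promoter peaks, 7.23% of intergenic and gene-end peaks and 8.10% of repeat peaks beyond 1 kb.

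Host genes were set beside 20 gene lists on fibroblast activation, gene regulation and other cell types. Of all 20056 protein-coding genes 240 held an intragenic peak, 1.2%, and of the 1240 genes on any list 42 did (3.39%, 2.45 to 4.55). The lists were chosen with earlier results of these data known and contain genes already known to hold a peak, such as SLC6A3, BACH2, SRCAP and SBNO2. Gene length was not used here. The counts are a description, with no test of enrichment.

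Actin cytoskeleton and contractility genes had the highest share, 9 of 70 (12.9%, 6.05 to 23.0). The strongest were PLEC, of the cytolinker plectin (83, intron 2), PDLIM2, of a PDZ and LIM domain protein (80, intron 5), AFAP1, of an actin filament-associated protein (74 and 33, intron 6), and MYO18A, of an unconventional myosin (57, intron 2). The others were ACTN4 (46), the alpha-actinin gene, DST (44), FLNA (32), the filamin A gene, LMOD1 (28) and CORO2B (27). The median score of these 10 peaks was 45, below the 60.5 of all 306, and at or above the median score of the list 3 genes were left, at its upper quartile 0. ACTA2, the smooth muscle actin gene, and MYH9 were on the list and held none.

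The matrix lists had lower shares, with intervals that overlapped that of the actin list. Of 60 genes on the extracellular matrix list 2 held a peak (3.33%, 0.41 to 11.5). They were COL16A1, a fibril-associated collagen gene (57, intron 2), and LTBP3, of a latent TGF-beta binding protein (37, intron 1). This list does not hold every matrix gene, and HMCN2 (98) and LAMA3 (71) were hosts outside it. Crosslinking and remodelling genes had 0 of 45, which allows up to 7.87%. Integrin and focal adhesion genes had 1 of 53, ITGB3, the integrin beta 3 gene (81, intron 10).

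Signalling lists had 1 to 3 genes each. In TGF-beta and BMP signalling 2 of 53 genes held peaks, the co-receptor gene ENG (85, intron 2) and SKI, of a repressor of SMAD signalling (76 and 34, intron 1). For YAP and TEAD these were 2 of 43, DLC1 (58, intron 5) and WWTR1, the gene of TAZ (21, intron 3). Growth factors and receptors had 3 of 61, CTF1, of the cytokine cardiotrophin 1 (59), EGFR, of the epidermal growth factor receptor (59, intron 1), and CSF1R, of a macrophage growth factor receptor (47), and the WNT, NOTCH and hedgehog list 2 of 60, the ligand gene WNT3 (60) and GLI2, of a hedgehog effector (57). NF-kappaB and interferon signalling had 1 of 62, SBNO2. Shares of 1.61% to 4.92% in these lists came with intervals whose lower ends lay between 0.04% and 1.03%, so each interval held the 1.2% of all protein-coding genes.

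Among mesenchymal and other developmental transcription factor genes 9 of 97 held a peak (9.28%, 4.33 to 16.9). PPARD (127 and 38, intron 2), VDR (115, intron 1) and RARA (55) encode nuclear receptors. PRDM16 (87), NFATC2 (74), EPAS1 (51), which encodes HIF-2 alpha, FOXP4 (44), FOXK1 (37) and SOX6 (33) were the others. At or above the median score of the list 4 genes were left. Other bZIP factor genes beside BACH2 held none, 1 of 45 in all. Chromatin regulators had 3 of 87, SRCAP, EHMT1, of a histone H3 lysine 9 methyltransferase (91, intron 25), and ANKRD11 (34). Counted by nearest gene, or with peaks over 10 kb from a TSS, this list had 0.

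**Figure D5:**
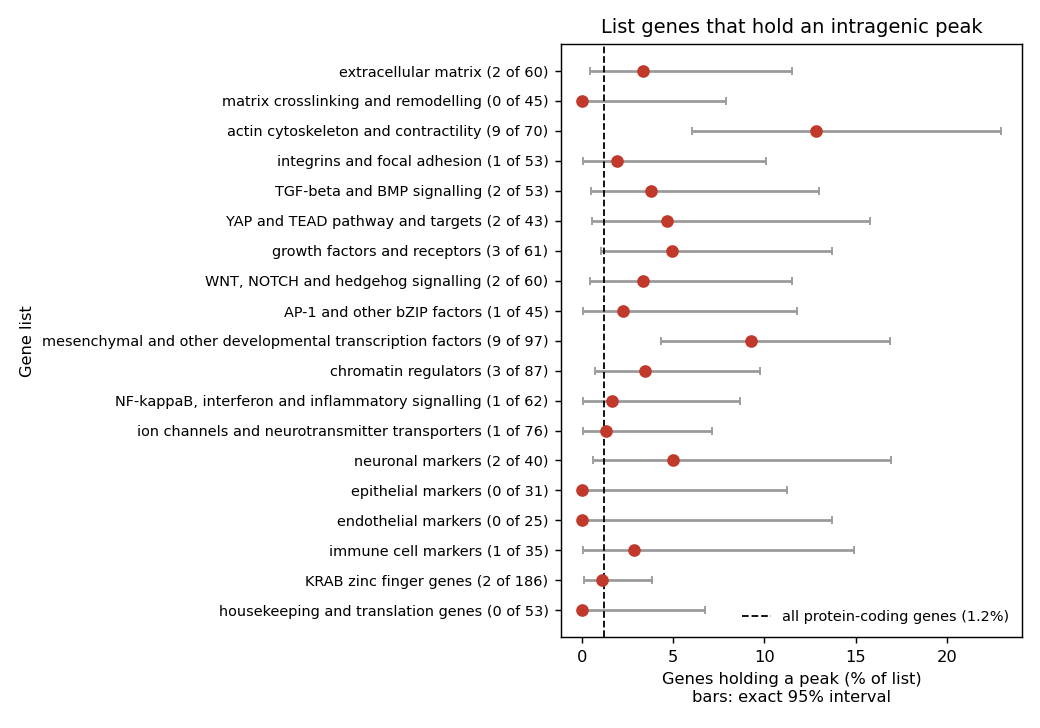
Percent of the genes of each of 19 lists that hold an intragenic peak, with exact 95% intervals, and in brackets the count; the dashed line is the 1.2% of all protein-coding genes. The points for actin genes (9 of 70) and transcription factor genes (9 of 97) lie farthest to the right, and 4 lists are at 0.

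The remaining lists were of other cell types and functions. Ion channels and neurotransmitter transporters had 1 of 76, SLC6A3, and neuronal markers 2 of 40, the tubulin gene TUBB3 (121, intron 1) and SHANK2 (30). Immune cell markers had 1 of 35, which was CSF1R. Epithelial markers (0 of 31), endothelial markers (0 of 25) and housekeeping and translation genes (0 of 53) had none, with upper limits of 11.2%, 13.7% and 6.72%. The list of KRAB zinc finger genes had 2 of 186 (1.08%, 0.13 to 3.83), ZNF274 (32, intron 4) and ZNF529 (27, last exon). It does not hold every gene of that class, and zinc finger genes outside it, such as ZFP37 (50) and ZNF7 (38), were also hosts. ZNF416 itself held none.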

How the data were processed

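ZNF416-FLAG ChIP and input libraries of IMR90 cells were analysed through 1 deposited peak list on hg19. Per the submitters' processing notes, Bowtie2, Picard, MACS2, deepTools and HOMER were used; neither versions nor steps are listed. The table is HOMER annotation of narrow peaks from which blacklisted regions had been taken, per the file headers. The treatment of replicates and of the inputs in peak calling is not stated in these sources. Each peak has a score deposited by the authors, a whole number whose scale is not stated, used only to rank peaks within this list. Distances and positions are those of the deposited annotation.

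Hosts came from the transcript named in the annotation, matched to a RefSeq gene table (GRCh38.p14), used for names, types and whether one gene lies within another. Medians have order-statistic intervals, shares exact ones, both at 95%. The summaries were tested on simulated data. Python 3.11.15, pandas 2.3.3 and scipy 1.17.1 were used.

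Members and lists were chosen with earlier results of these data known. Of the 20 lists, 1 is counted only in the total and is not reported here. Genes named were the hosts of the 15 strongest peaks, up to 4 per list, 10 hosts with 2 or more peaks, up to 4 per minor class, the 3 widest, farthest and nearest to the limit on either side, and the 5 strongest whose host is not nearest. The miRNA hosts, LINC01460, the genes with a promoter peak and those with a later start site were added after their values were seen. So were all members of the groups, the complete actin and transcription factor lists, and the hosts named as outside a list. The sequences of the peaks themselves, on hg19, were not used here.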

Additional observations from a re-analysis of the deposited data

How the results depend on the processing

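Under 9 planned changes, or 7 for the gene lists, 79 values were recomputed for the main results. Of these, 63 stayed within the interval of the main value (counts within 1.5 times) and 16 moved. The main values are counts, medians and shares without a direction, so none could change direction. Leaving out peaks on X or labelled as CpG islands and merging peaks closer than 1 kb moved none of these values. Counting repeats too, a limit of 2 kb and crediting the nearest gene also moved none. Several moves follow from the change itself. The number of peaks became 176 over 10 kb, 151 at or above the median score and 73 at or above the upper quartile, and the median score 84 and 112 in the last 2. The median distance became 22033.5 bp over 5 kb and 31995 bp over 10 kb. The share of intronic peaks in intron 1 fell from 35.8% to 27.1% over 5 kb, 25.9% over 10 kb and 23.5% at or above the upper quartile. At that quartile the median width was 148 bp, the intronic share 93.2% and the share downstream of the nearest TSS 69.9%, against 79.7% of all 306. List genes with a peak fell from 42 to 26 over 10 kb, 16 at the median score and 8 at the upper quartile. For single gene lists and intron classes, 38 of 148 values moved. The cause was not tested for moves that do not follow from the change. No paired analysis was possible because the list holds no value of a single library. For the same reason no replicate could be left out, and depth limits are unknown.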
